A study of Homo sapiens with 6 samples.

Results

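FOXO1, FOXO3 and FOXO4, 3 forkhead transcription factors, were followed together with 7 other genes: HBP1, BTG1, TXNIP, YPEL3, YPEL5, TRIB2 and BCL6. These were grouped under the heading of quiescence, although TRIB2 has been described as a repressor of FOXO. Every probe annotated to these 10 genes on an Illumina bead array was taken, which gave 14 of 47316 probes and 10 of 20044 named genes. The genes were chosen with the contrast described here already known, so their values are a description. Standard errors, intervals and calls of the whole-array fit are given for them only as outputs of that fit, are no independent test of these genes and support nothing. The cells were UWB1.289, an established human ovarian carcinoma line that lacks functional BRCA1, and that background is common to both groups. Of the 6 arrays, 3 came from cells given a scrambled control siRNA (siCTRL) and 3 from cells given an siRNA against HBO1 (siHBO1), with RNA taken 48 hours after transfection. HBO1 is the histone acetyltransferase encoded by KAT7. The series covers this single line, the sources used here do not state the siRNA sequences, and silencing of other transcripts was not tested. Nothing in the labels says that the replicates were separate cultures, and p-values therefore describe the scatter among these 6 arrays alone, which could be technical.

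FOXO factors carry out transcription when insulin and growth factor signalling is low. AKT phosphorylates them under growth factor signalling, 14-3-3 proteins then hold them in the cytoplasm, and when the kinase is quiet they enter the nucleus and switch on genes of cell cycle arrest, stress resistance, autophagy and cell death. Much of this control acts on the proteins, so transcript levels of the FOXO genes report only 1 layer of it. HBP1, BTG1 and TXNIP restrain proliferation through separate routes and have been described as FOXO-responsive genes, while TRIB2 is a pseudokinase that has been described as a repressor of FOXO.

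The promoters of the genes are shown first, because the FOXO binding element occurs in several of them. The element searched was GTAAACA, or its reverse complement, in the 250 bases before the outermost annotated start site of each gene, in RefSeq promoter sequences of GRCh38.p14. All 10 genes had such a window. It was found in 4 of them, TXNIP, HBP1, BTG1 and TRIB2, and in 823 of 27305 genes with a window, or 3.01%. The windows of those 4 genes follow, read 5′ to 3′ on the strand of the gene, with the FOXO element in capitals. In TXNIP the capitals also mark both boxes of a carbohydrate response element, searched as CACGAG, 5 bases of any kind and CACGAG again.
TXNIP: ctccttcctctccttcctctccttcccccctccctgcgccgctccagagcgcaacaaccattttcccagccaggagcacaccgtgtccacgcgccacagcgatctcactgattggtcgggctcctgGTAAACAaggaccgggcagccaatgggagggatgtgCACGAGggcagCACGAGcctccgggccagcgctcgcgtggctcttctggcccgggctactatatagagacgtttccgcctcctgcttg
HBP1: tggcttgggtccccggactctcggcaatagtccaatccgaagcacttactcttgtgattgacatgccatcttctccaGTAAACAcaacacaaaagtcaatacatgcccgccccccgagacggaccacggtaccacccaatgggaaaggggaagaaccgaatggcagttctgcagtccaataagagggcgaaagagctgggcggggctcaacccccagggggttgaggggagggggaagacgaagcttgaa
BTG1: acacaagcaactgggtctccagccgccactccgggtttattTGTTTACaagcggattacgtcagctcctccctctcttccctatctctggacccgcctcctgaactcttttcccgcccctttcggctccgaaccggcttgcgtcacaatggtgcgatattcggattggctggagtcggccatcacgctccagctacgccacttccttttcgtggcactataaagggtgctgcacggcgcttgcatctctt
TRIB2: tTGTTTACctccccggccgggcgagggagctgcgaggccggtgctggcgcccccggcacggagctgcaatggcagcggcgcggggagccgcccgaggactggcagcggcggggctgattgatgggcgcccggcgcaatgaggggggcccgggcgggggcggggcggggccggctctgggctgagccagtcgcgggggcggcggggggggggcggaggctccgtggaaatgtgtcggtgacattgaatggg
The TXNIP window lies at chr1:145996580-145996829 on the minus strand, and its FOXO element begins 124 bases before the start site. The HBP1 window is chr7:107168753-107169002 on the plus strand, with the element 173 bases before the start site. For BTG1 the window is chr12:92145847-92146096 on the minus strand, which overlaps the divergent transcript BTG1-DT, and the element begins 209 bases before the start site. The TRIB2 window is chr2:12716686-12716935 on the plus strand and overlaps LOC124905974. There the element begins 249 bases before the start site, at the far edge of the window. The carbohydrate response element, which the glucose-sensing MondoA and ChREBP factors with MLX are known to bind in TXNIP, begins 88 bases before the start site. The same spaced pair of boxes was found in 2 of the 27305 genes, 1 of them TXNIP.

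The CCAAT box, searched as CCAAT on both strands and bound by NF-Y, occurred in 5 of the 10 genes (FOXO1, HBP1, BTG1, TXNIP and YPEL3) and in 33.0% of all genes. The E-box CACGTG occurred in 0 of the 10 and in 6.46% of all genes. None of these motifs overlapped another in the 10 windows. A match says only that the letters are present. It does not tell which protein would bind them, and binding was not measured.

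**Figure D1:**
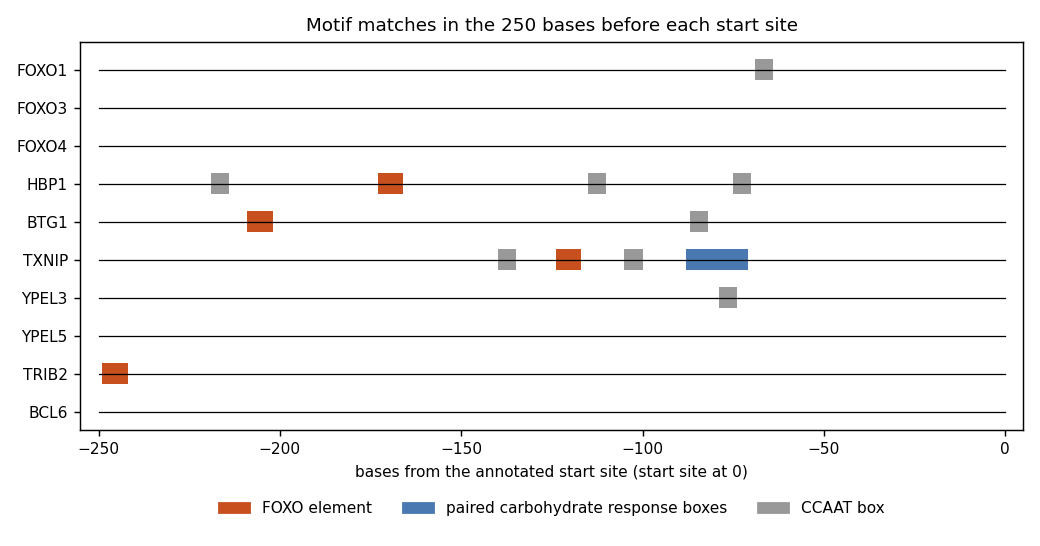
Positions of the motif matches in the 250 bases before the outermost start site of each of the 10 genes, with distance from the start site in bases on the horizontal axis. Red bars are the FOXO element, which is present in TXNIP, HBP1, BTG1 and TRIB2. Blue is the paired carbohydrate response boxes of TXNIP, and grey bars are CCAAT boxes.

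Across the arrays, 20546 to 21507 probes were detected at a detection p under 0.05, and 21333 probes detected on at least 3 of 6 arrays were tested. All 6 arrays carried 9 of 10 ovarian and epithelial markers (EPCAM, KRT7, KRT8, KRT18, KRT19, CDH1, PAX8, MUC16 and MSLN). The leukocyte genes PTPRC, CD3E, MS4A1 and LYZ, the fibroblast genes COL3A1, LUM, PDGFRB and PDGFRA, and the endothelial genes VWF, KDR and TEK did not enter the test, because they were not detected on enough arrays. Detected on all 6 arrays were 3 of 7 leukocyte markers on the array (CD68, CD14 and ITGAM), 2 of 8 fibroblast markers (COL1A2 and THY1) and 2 of 5 endothelial markers (PECAM1 and CDH5). Summed linear signal of the leukocyte list was 1509 to 2062 on control arrays and 1746 to 2114 on siHBO1 arrays. For fibroblast markers it was 649 to 896 and 867 to 1236, for endothelial markers 546 to 870 and 717 to 931, and for the epithelial list 58638 to 64100 and 62532 to 68863, so the summed signal overlapped between groups for each list. Of the 10 tested epithelial markers, MUC16, the CA-125 antigen, rose by 1.33 (SE 0.18, limma adjusted p = 0.0243) and CDH1, E-cadherin, by 0.76 (SE 0.13, limma adjusted p = 0.0400). The siHBO1 arrays lay wholly above the controls for CD14 (log2 fold change 0.79), ITGAM (0.48), PECAM1 (0.68) and COL1A2 (0.33), and wholly below them for WT1 (-0.53), none of the 5 called, with limma adjusted p of 0.0989, 0.1400, 0.1020, 0.2010 and 0.1130. All 3 tested leukocyte markers were above 0, with a median of 0.48. The part of these markers in the results was not tested. The siRNA target KAT7 read 7.98, 7.93 and 7.56 on control arrays and 5.59, 6.29 and 5.98 on siHBO1 arrays, in normalised log2 intensity, so the target was lower in every array labelled siHBO1. In these bulk samples more transcript per cell and more cells expressing a gene cannot be told apart.

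Nearly all measured genes of this set, TRIB2 among them, read higher after HBO1 siRNA. Of the 14 probes, 12 passed the detection filter, covering all 10 genes, and each of the 12 was detected on all 6 arrays. The 2 that did not pass were both FOXO3 probes. All 12 log2 fold changes (siHBO1 minus siCTRL, on normalised log2 intensity) were above 0, as were 48.8% of tested probes on the array. Their median was 0.52, against -0.006 over all tested probes. In limma's moderated fit over the whole array, 4 of the 12 were past a Benjamini-Hochberg adjusted p of 0.05, all 4 higher, where the share of all tested probes past it and higher was 1.47%. These 4 were the probes of BTG1, both probes of HBP1 and 1 FOXO3 probe. Taking a gene by its brightest probe, 3 of 10 were past it, against 1.91% of all named genes that were past it and higher. The siHBO1 arrays lay wholly above the control arrays for 10 of 12 probes, as for 13.3% of all tested probes. Because the genes were chosen on this contrast, nothing is read from these shares.

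The 4 calls rested on all 6 arrays. With any 1 of control replicates 1, 2 and 3 or siHBO1 replicates 1, 2 and 3 left out, limma called 0 of the 12 probes, while 10 or 11 of them kept an unadjusted p under 0.05, as did 15.7% to 22.4% of all tested probes. Over the whole array the calls then fell from 582 to between 1 and 268. Of the 582, 54.0% were higher, and scaling to the array median instead of by quantiles gave 38.3% higher and 2 called probes of the 12, HBP1 (ILMN_2160764) and BTG1.

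**Figure D2:**
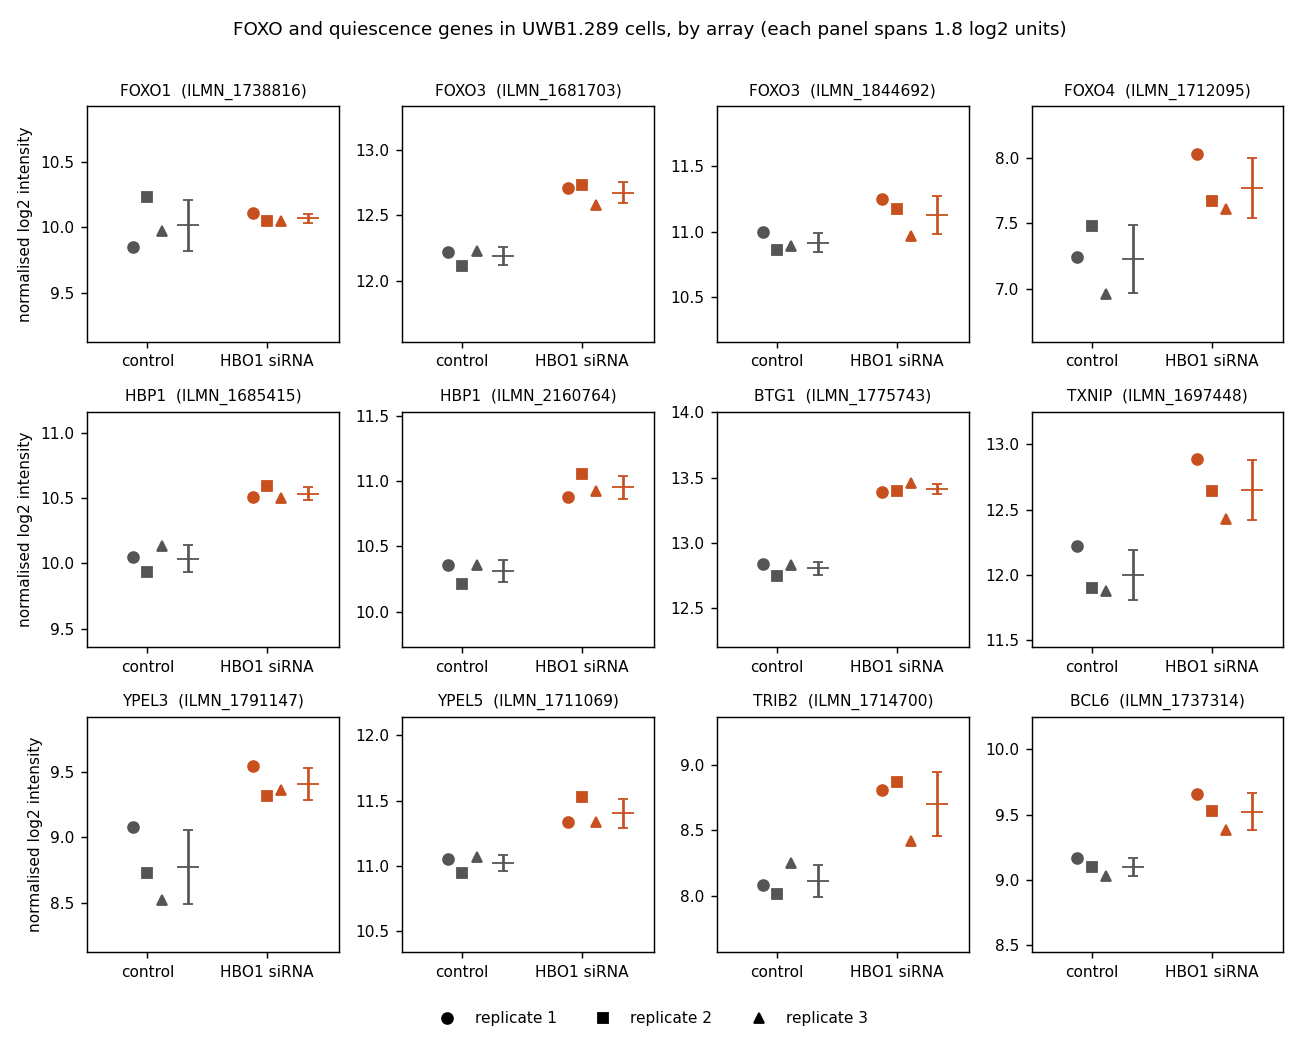
Normalised log2 intensity of the 12 tested probes on each array, 1 panel per probe, with control siRNA in grey and HBO1 siRNA in red. Symbols mark the replicate number, and the bars beside them are the mean ± SD (n = 3). The groups are apart in every panel except FOXO1 and FOXO3 ILMN_1844692.

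Among the 3 FOXO factors, FOXO3 and FOXO4 read higher and FOXO1 did not. FOXO3 is the family member most often linked to quiescence and stress resistance. Its brighter detected probe (ILMN_1681703) read 12.22, 12.11 and 12.23 on the control arrays and 12.71, 12.73 and 12.58 on the siHBO1 arrays. The 3 siHBO1 arrays all lay above every control array, with a gap of 0.34 between the groups, and the log2 fold change was 0.48 (SE 0.09), or 1.40-fold. On the second detected probe (ILMN_1844692) the control arrays read 11.00, 10.86 and 10.89 and the siHBO1 arrays 11.25, 11.17 and 10.97. Here siHBO1 replicate 3 fell below control replicate 1, so the groups overlapped, and the log2 fold change was 0.21 (SE 0.11), or 0.13 with median scaling. The first probe was past the threshold and the second was not, and the difference between them was not tested. The other 2 FOXO3 probes (ILMN_1687940 and ILMN_1712515) were detected on 0 of 6 arrays and read 4.74 to 4.99 and 4.97 to 5.22. FOXO3B on chromosome 17 is a near-identical copy of FOXO3 (chr6:108559825-108684774, GRCh38.p14), so signal from it cannot be kept apart.

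FOXO1, the factor through which insulin restrains glucose production in liver, read 9.85, 10.23 and 9.97 on control arrays and 10.11, 10.05 and 10.05 on siHBO1 arrays. All 3 siHBO1 values lay inside the control range. The log2 fold change was 0.05 (95% confidence interval from -0.22 to 0.33), and its sign turned with median scaling (-0.01) and without control replicate 1 (-0.03). FOXO4, encoded on the X chromosome, read 7.24, 7.48 and 6.96 in controls against 8.03, 7.67 and 7.61. The groups did not overlap, but the lowest siHBO1 array stood only 0.13 above the highest control array. Its log2 fold change was 0.55 (SE 0.17), it was not past the threshold, and without background correction it was 0.27.

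HBP1, an HMG-box repressor that slows entry into S phase and restrains Wnt signalling, was higher on both of its probes. On ILMN_2160764 the control arrays read 10.36, 10.21 and 10.36 and the siHBO1 arrays 10.88, 11.05 and 10.92, a log2 fold change of 0.64 (SE 0.10), or 1.56-fold. On ILMN_1685415 the values were 10.05, 9.93 and 10.13 against 10.51, 10.59 and 10.50, with a log2 fold change of 0.50 (SE 0.09). The groups were apart on both probes and the spread within each group was at most 0.10 (SD, n = 3). Both probes were past the threshold, and they are of 1 transcript, so they are not replicates of each other.

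BTG1, an antiproliferative protein that recruits the CCR4-NOT deadenylase to shorten mRNA tails, gave tight groups. Its probe (ILMN_1775743) read 12.84, 12.75 and 12.83 on control arrays and 13.39, 13.40 and 13.46 on siHBO1 arrays. The SD was 0.05 in controls and 0.04 in siHBO1 cells (n = 3 each), and the lowest siHBO1 array stood 0.54 above the highest control. The log2 fold change was 0.61 (SE 0.09), or 1.52-fold, and was past the threshold. In deposited intensity, before any normalisation, the probe read 8053, 7692 and 7208 in controls and 10678, 10256 and 11165 in siHBO1 cells.

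TXNIP, the thioredoxin-binding arrestin that limits glucose uptake, was also higher, with more spread within each group than BTG1. Control arrays read 12.22, 11.90 and 11.88, and siHBO1 arrays read 12.89, 12.64 and 12.43. Control replicate 1 and siHBO1 replicate 1 were the highest of their groups, and the lowest siHBO1 array still stood above the highest control. The log2 fold change was 0.65 (SE 0.15), or 1.57-fold, and its 95% confidence interval ran from 0.29 to 1.01. It was not past the threshold of the whole-array fit. It passed under 6 of 15 alternatives, among them the processed values of the authors.

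YPEL3 and YPEL5 belong to the yippee-like family of small zinc-binding proteins. YPEL3 has been described as a p53-induced gene that arrests growth, and YPEL5 is a subunit of the CTLH ubiquitin ligase. YPEL3 read 9.08, 8.73 and 8.52 in controls and 9.55, 9.32 and 9.36 in siHBO1 cells, with control replicate 1 the highest of its group. Its log2 fold change was 0.63 (SE 0.16), or 1.55-fold. YPEL5 read 11.05, 10.95 and 11.07 in controls and 11.34, 11.53 and 11.34 in siHBO1 cells, a log2 fold change of 0.38 (SE 0.10). Neither was past the threshold, and for both the groups did not overlap.

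TRIB2 is known to act with the ubiquitin ligase COP1 to degrade C/EBP proteins. Its probe read 8.08, 8.01 and 8.25 on control arrays and 8.81, 8.87 and 8.42 on siHBO1 arrays, where siHBO1 replicate 3 lay closer to the controls than the other two. The log2 fold change was 0.58 (SE 0.14), and 0.38 without background correction. BCL6, the zinc finger repressor of germinal centre B cells that also restrains cell cycle genes elsewhere, read 9.17, 9.10 and 9.03 in controls and 9.66, 9.53 and 9.38 in siHBO1 cells. The log2 fold change was 0.42 (SE 0.11), or 1.34-fold. TRIB2 and BCL6 were not past the threshold, and neither had overlapping groups.

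Within the siHBO1 group the arrays did not contribute alike. Replicate 3 was the lowest of the 3 siHBO1 arrays for 8 of the 12 probes and the highest for 1, BTG1. Replicate 1 was the highest for 6 probes and replicate 2 for 5. Leaving out siHBO1 replicate 3 moved the median log2 fold change of the 12 probes from 0.52 to 0.56, and leaving out siHBO1 replicate 2 moved it to 0.48. In the deposited intensities, where no array had been brought to a common scale, siHBO1 arrays still lay above the controls for 8 of 12 probes. In those intensities 4.73% of all tested probes had the siHBO1 arrays above and 3968 of 21333 had them below, and the array medians were 224.1 to 242.6 in controls and 205.4 to 239 in siHBO1 cells. The probes that overlapped before normalisation were those of FOXO1, FOXO4, YPEL3 and FOXO3 ILMN_1844692.

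**Figure D3:**
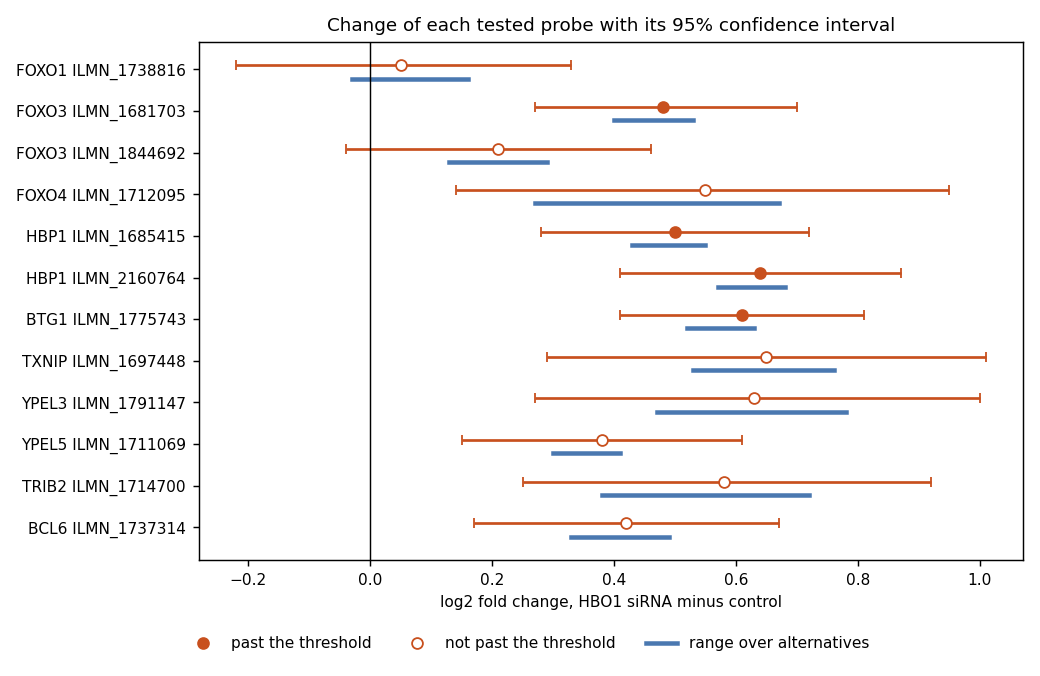
Log2 fold change (siHBO1 minus siCTRL) of each tested probe on the horizontal axis, with its 95% confidence interval from limma in red and the range over the alternative settings in blue. Filled points are past the threshold of the whole-array fit. FOXO1 sits at 0.05, and the other probes lie between 0.21 and 0.65.

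Other genes known as FOXO targets were read from lists written for this comparison. These lists, like those further below, were written with earlier results of these data known. Their counts, medians and p-values are a description and give no separate support. Of 23 tested targets in metabolism, stress and autophagy, 4 rose, 0 fell and 19 did not pass, with a list median of 0.23 against 0.01 over all 12227 genes, of which 3.19% were called, 1.91% higher and 1.28% lower. PIK3IP1, an inhibitor of PI3-kinase, read 8.02, 8.11 and 8.17 in controls and 9.06, 9.10 and 9.00 in siHBO1 cells. Its rise was 0.95 on the log2 scale (SE 0.09, limma adjusted p = 0.0175), or 1.93-fold, and the lowest siHBO1 array stood 0.83 above the highest control. PDK4, the kinase that shuts pyruvate out of the citric acid cycle, was undetected on all control arrays and detected on all siHBO1 arrays, so its rise is at least 1.82-fold against the lowest detected signal at an offset of 16 (limma adjusted p = 0.0266). The measured means were 5.53 and 6.64. That bound holds for this background step only, since the log2 fold change was 0.78 with the authors' values, 0.73 at an offset of 50 and 0.33 without background correction. PDK4 met the detection filter only through the siHBO1 arrays, where it was high, so its place among the 4 supports nothing. ULK1, which starts autophagy, rose by 0.79 (SE 0.12, limma adjusted p = 0.0288), and its second probe rose by 0.81 (adjusted p = 0.0278). FBXO32, the muscle atrophy ubiquitin ligase atrogin-1, rose by 0.87 (SE 0.17, limma adjusted p = 0.0485). Its second probe, at 0.67, was not called (limma adjusted p = 0.0898), and with median scaling the first lost its call. Among the 19 others, by brightest probe, INSR and BNIP3 were lowest, both at -0.38. BNIP3L was highest of those detected in both groups, at 0.49, and all 3 are named here after their values were seen. DEPP1 was undetected on all control arrays, has only a bound and is not ranked. The number called was 1 (PIK3IP1) without control replicate 1 or without siHBO1 replicate 3, and 0 without any 1 of control replicates 2 and 3 or siHBO1 replicates 1 and 2.

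Of 12 tested FOXO targets in the cell cycle and cell death, 2 rose, 0 fell and 10 did not pass, with a median of 0.27. The list pooled targets without regard to the direction in which FOXO factors act on them, so its median has no expected sign. The D-type cyclins CCND1 and CCND2, named after their values were seen, are among the 12, at -0.03 and -0.39. Among all 12227 genes, 1.91% were called higher and 1.28% lower. CDKN1A, which encodes the cell cycle inhibitor p21, read 10.14, 10.11 and 10.20 in controls and 11.29, 11.46 and 11.10 in siHBO1 cells, a rise of 1.13 (SE 0.11, limma adjusted p = 0.0187). CCNG2, an atypical cyclin of arrested cells, read 8.21, 7.87 and 7.20 in controls and 9.31, 9.54 and 9.06 in siHBO1 cells. Its brightest probe rose by 1.54 (SE 0.26, limma adjusted p = 0.0350), or 1.01 without background correction, and a second probe was at 1.08 (limma adjusted p = 0.0560). Probe ILMN_1879480 of the same gene was undetected on all control arrays and was not called, with a difference of at least 1.2-fold. The control spread of CCNG2 was wide, at 0.51 (SD, n = 3), with control replicate 3 lowest. CDKN1A alone stayed called in this list without control replicate 1 or siHBO1 replicate 3, and 0 of the 12 were called without any other single array. The FOXO element defined above was present in 1 of 22 promoter windows of the first list (DEPP1) and in 1 of 10 of the second (BCL2L11). These windows were counted whether or not the gene was tested.

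**Figure D4:**
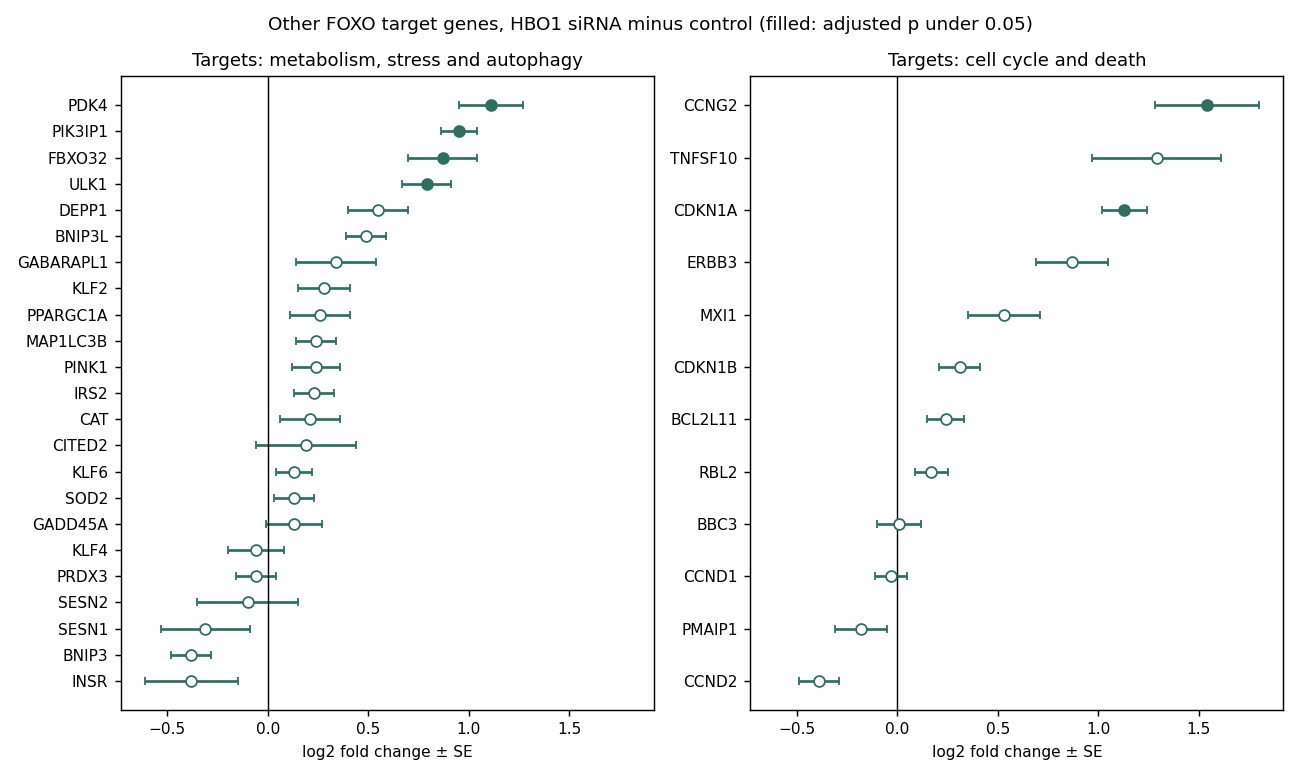
Log2 fold change ± SE (limma, n = 3 arrays per group) of the tested genes in both lists of FOXO targets, HBO1 siRNA minus control, on the brightest probe of each gene. Filled points have an adjusted p under 0.05: PDK4, PIK3IP1, FBXO32 and ULK1 on the left, CCNG2 and CDKN1A on the right. PDK4 and DEPP1 were undetected on all control arrays, so their plotted values are not exact differences. Both met the detection filter only through the siHBO1 arrays.

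Regulators of the FOXO proteins gave no calls on their brightest probes. Of 24 tested kinases, 14-3-3 proteins, deacetylases and cofactors, 0 rose and 0 fell in limma's test, while an unadjusted p under 0.05 was reached by 3 lower and 0 higher genes, against 10.9% lower and 12.9% higher among all 12227 genes, and the list median was -0.09. The largest values on the brightest probes were those of SGK1, an AKT-related kinase, at -0.42 (SE 0.39), and MAPK8, the kinase JNK1, at -0.40 (SE 0.21). SGK1 was at -0.06 without siHBO1 replicate 1, and MAPK8 at -0.20 without siHBO1 replicate 2 or without background correction. The other SGK1 probes were at -0.58 and -0.47, and a second MAPK8 probe was at -0.54 with the siHBO1 arrays wholly below the controls, none of them called. Second probes of CREBBP and CDK2, named after their values were seen, were at -0.71 and -0.57, against 0.01 and -0.39 on the brightest. Of the 24, 2 were called without background correction and 2 with a trended and robust prior.

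Among 14 tested relatives of the members, 0 were called in limma's test. An unadjusted p under 0.05 was reached by 4 higher and 0 lower genes, against 12.9% and 10.9% of all genes, and the median was 0.11. YPEL1 read 6.40, 5.99 and 5.96 in controls and 7.39, 7.45 and 6.66 in siHBO1 cells, and YPEL2 read 8.20, 8.38 and 8.89 against 9.07, 9.82 and 9.49. The groups did not overlap for either gene. Their log2 fold changes were 1.05 (SE 0.23, limma adjusted p = 0.0622) and 0.97 (SE 0.24, limma adjusted p = 0.0782). YPEL1 was at 0.38 without background correction and was called under 6 of 14 alternatives, among them without siHBO1 replicate 3 (1.30, limma adjusted p = 0.0405). YPEL2 was called under 5 of 15.

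Of 9 tested genes around TXNIP, HK2, the hexokinase that traps glucose in the cell, fell by 0.60 (SE 0.12, limma adjusted p = 0.0498), 0 rose and 8 did not pass, with a median of -0.24. Among all 12227 genes, 1.28% were called lower and 1.91% higher. In this list 4 lower genes and 1 higher gene had an unadjusted p under 0.05, against 10.9% and 12.9% of all genes. The lowest value was that of NLRP3, named after it was seen, at -0.66 (SE 0.16, limma adjusted p = 0.0737), which was not called. Other NLRP3 probes were at -0.47 and -0.61. HK2 read 10.56, 10.61 and 10.85 in controls and 9.93, 10.15 and 10.15 in siHBO1 cells. Its second probe was at -0.16 and was not called, and the call was lost on leaving out any 1 of control replicates 1, 2 and 3 or siHBO1 replicates 1, 2 and 3. Among 13 partners of BCL6, TRIB2, HBP1 and BTG1, 0 passed in limma's test, and 1 higher and 0 lower genes had an unadjusted p under 0.05, against 12.9% and 10.9% of all genes. CNOT8, a deadenylase that BTG proteins bind, was at 0.40 (SE 0.13), with 0.10 and overlapping groups on its second probe. PRDM1, a gene that BCL6 represses in B cells, was at 0.73 (SE 0.41), or 0.26 without control replicate 1 and 0.24 without background correction.

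In the list of DREAM complex and arrest factors, 1 of 18 rose, again CDKN1A, 0 fell and 17 did not pass, with a median of 0.15. Calls among all 12227 genes were 1.91% higher and 1.28% lower. The pocket protein RBL2 and the inhibitor CDKN1B belong to this list and to the second FOXO target list, so the lists are not independent. Of 15 proliferation markers, 0 passed in limma's test. Their median was -0.08, and 1 lower and 0 higher genes had an unadjusted p under 0.05, against 10.9% and 12.9% of all genes. The largest were MYBL2, a transcription factor of S and G2 phase, at -0.56 (SE 0.35), or -0.20 without siHBO1 replicate 2 and -0.17 without background correction, and MCM2, a replicative helicase subunit, at -0.43 (SE 0.09, limma adjusted p = 0.0550). MCM2 was called under 7 of 15 alternatives. MKI67, the antigen Ki-67, named after its value was seen, was at -0.02.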

How the data were processed

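Per the labels' protocols, total RNA from siRNA-transfected cells was column-purified and biotinylated cRNA was hybridised to Illumina arrays. GenomeStudio and lumi are named, without version, in the submitters' processing notes. The deposited intensity of each probe is an average bead signal, per the file headers, and from its values was treated as raw. The detection p-value of each probe and array was also deposited, per the file headers, in steps that imply 770 negative controls. The authors' processed table was taken from its values to be normalised log2 intensity (median 6.31 in the column of control replicate 1). The sources used here do not give its method or background step, and it served as an alternative.

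Intensities were processed with limma 3.58.1 under R 4.3.3 with statmod 1.5.0 (function neqc, offset 16, controls inferred from detection p) and fitted with lmFit and eBayes on 2 group means with no covariate. Precision is limited by the number of arrays. The fit was also run on simulated arrays with independent noise, which does not bear on effects shared between arrays. No result here rests on it. Genes came from the platform annotation (30109 probes with 1 symbol, 8 with several, 17199 with none), updated through Entrez identifiers to GRCh38.p14 for 30070 probes. A gene in a list was its brightest tested probe. Named genes were the members, KAT7, and per list up to 4 called genes of largest change, or 2 given as values where 0 were called; others are marked. Members and lists were chosen with earlier results of these data known. Listed genes not matched to a tested probe had no fold change or call in the main fit. Promoter counts, and the detection and summed signal of cell type markers, did not require a tested probe. Alternatives were an offset of 50, median scaling, the authors' values, uncorrected background, every probe kept, a detection p under 0.01 required of all 6 arrays, a prior both trended and robust, weighted arrays, a replicate block, gene means over probes, and each array left out.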

Additional observations from a re-analysis of the deposited data

How the results depend on the processing

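All 12 tested member probes kept their sign under the 15 alternatives except FOXO1. That probe was at -0.01 with median scaling and ranged from -0.03 (without control replicate 1) to 0.16 on leaving out 1 array. Of the 12 probes, 9 were called without background correction, 9 at detection p under 0.01 on all 6 arrays, 9 with the trended and robust prior, 2 with median scaling and 2 without the detection filter, against 4 as reported. On the whole array, calls numbered 979 with the authors' values, 1811 without background correction, 1020 with an offset of 50, 247 without the detection filter, 1136 at the stricter detection, 1886 with the trended prior and 913 with array weights, against 582. Genes called over the 8 pathway lists numbered 14 with the authors' values, 21 without background correction, 14 with an offset of 50, 4 without the detection filter, 14 at the stricter detection, 21 with the trended prior, 11 with array weights and 12 when probes of a gene were averaged, against 7. Leaving out 1 array gave 1 to 268 calls on the array, 0 of the 12 probes (limma), 0 to 3 list genes and KAT7 log2 fold changes of -2.04 to -1.69. KAT7 was at -0.74 without background correction and -1.44 with the authors' values, against -1.87. KAT7 lost its call without control replicate 2 or 3 and without siHBO1 replicate 1 or 2, and had no value at the stricter detection, which it did not meet. The cause of these differences was not tested.

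Whether the replicate numbers pair the arrays was not settled. Deviations of same-numbered arrays correlated at 0.262, -0.0187 and 0.217 for replicates 1, 2 and 3. Between unlike numbers the correlations ran from -0.278, for control replicate 1 with siHBO1 replicate 3, to 0.0897, for control replicate 2 with siHBO1 replicate 3. Deviations were taken from the mean of each group, so these correlations are tied together. With the replicate block limma called 282 probes on the array, 0 of the 12 and 7 list genes. An unadjusted p under 0.05 was then reached by 10 of the 12 and by 24.6% of all tested probes.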

Other observations

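Several listed genes outside the naming rule were singled out after their values were seen, and are given as values. ARRDC4, an arrestin related to TXNIP and, like it, known to respond to glucose through MondoA, read 6.97, 6.36 and 6.95 in controls and 6.21, 6.26 and 6.74 in siHBO1 cells. Its groups overlapped, and its log2 fold change was -0.36 (SE 0.21), against 0.65 for TXNIP. ARRDC3, another relative, was at 0.41 (SE 0.10) with groups that did not overlap. TNFSF10, the death ligand TRAIL, was 2.45-fold higher (limma adjusted p = 0.0817). ERBB3, a receptor that FOXO factors induce when AKT is inhibited, was at 0.87 (SE 0.18, limma adjusted p = 0.0519), with 0.21 on a second ERBB3 probe. CCND2, the lowest gene of the same list by brightest probe, was at -0.39 (SE 0.10, limma adjusted p = 0.0824). Its siHBO1 arrays lay wholly below the controls on that probe, and a second CCND2 probe was at -0.74. The paired mitophagy receptors BNIP3 and BNIP3L stood on opposite sides, at -0.38 (SE 0.10) and 0.49 (SE 0.10) on their brightest probes. On these probes the groups did not overlap and neither was called (limma adjusted p = 0.0930 and 0.0510). A second BNIP3L probe was at 0.73.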
